A study of Homo sapiens with 9 samples.

Results

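The 6 transcription factor genes PAX2, PAX8, HNF4A, LHX1, WT1 and SOX9, which specify kidney cells, and POU5F1, which encodes the stem cell factor OCT4, were followed in 786-0 cells with active, antagonised or knocked-out HIF2α. The 7 genes were fixed by name and not by a cut on their values, but earlier results of these data were known when they were chosen. They are 7 of the 58735 gene rows of the count table, of which 58207 were paired with a symbol through the GENCODE annotation of GRCh38. 786-0 is an established line of clear cell renal cell carcinoma in which VHL is defective and HIF1α is inactivated by mutation, so that HIF2α is expressed constitutively, and all 9 libraries share this background. Total RNA was sequenced from 3 libraries of WT cells (control), 3 of WT cells treated with 10 µM of the HIF2α antagonist PT2385 for 48 h (PT2385) and 3 of HIF2a KO cells (KO), all grown in normoxia at 21% O2 for 48 h. A single KO genotype was sequenced, how it was made and whether it is 1 clone or a pool is not given in the sources used here, and whether the control cells of the sequencing received a vehicle is not given in the sources used here. No source says that replicates were separate cultures, so p-values measure only the spread between these libraries, which may be technical. In such bulk libraries, fewer cells that express a gene and less of its RNA per cell cannot be told apart.

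During kidney development PAX2 and PAX8, a pair of paired box factors, together with the LIM homeobox factor LHX1, commit mesoderm to the nephric lineage and drive the formation of renal vesicles. WT1, a zinc finger factor, is needed for that transition and later marks podocytes, HNF4A directs the maturation of proximal tubule cells, and SOX9 is expressed in nephron progenitors and reappears in tubule cells after injury. PAX8 and PAX2 remain expressed in most renal carcinomas and serve as diagnostic markers. OCT4 works with SOX2 and NANOG to maintain pluripotency, and its gene has been described as a direct target of HIF2α in other cells. PT2385 binds HIF2α and prevents it from pairing with ARNT, while a knockout is meant to remove the HIF2α protein, so that a gene that needs this factor can be read out in both ways.

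To show the sequence before the members that fell and the one that did not, the 250 bases before the most upstream annotated start of PAX2, WT1 and PAX8 were taken from RefSeq promoter sequences (GRCh38.p14), which hold 4 of the 7 members. They are given 5′ to 3′ on the strand of the gene, and capitals mark ACGTG or GCGTG on either strand, the core of the element that HIF binds, so that CACGT and CACGC are the same motifs read on the other strand. The HNF4A window was searched as well, whereas LHX1, SOX9 and POU5F1 are named only. PAX2 lies at chr10:100735146-100735395 (plus strand), WT1 at chr11:32435540-32435789 (minus strand) and PAX8 at chr2:113278922-113279171 (minus strand).
PAX2: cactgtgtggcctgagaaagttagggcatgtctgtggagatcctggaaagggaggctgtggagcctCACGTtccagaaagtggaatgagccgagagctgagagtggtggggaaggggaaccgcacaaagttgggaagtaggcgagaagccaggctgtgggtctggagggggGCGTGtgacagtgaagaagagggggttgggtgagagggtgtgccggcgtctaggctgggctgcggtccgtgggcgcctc
WT1: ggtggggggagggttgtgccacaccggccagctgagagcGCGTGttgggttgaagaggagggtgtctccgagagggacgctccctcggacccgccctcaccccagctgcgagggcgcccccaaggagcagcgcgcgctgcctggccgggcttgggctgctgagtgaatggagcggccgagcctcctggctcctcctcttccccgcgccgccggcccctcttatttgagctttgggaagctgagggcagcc
PAX8: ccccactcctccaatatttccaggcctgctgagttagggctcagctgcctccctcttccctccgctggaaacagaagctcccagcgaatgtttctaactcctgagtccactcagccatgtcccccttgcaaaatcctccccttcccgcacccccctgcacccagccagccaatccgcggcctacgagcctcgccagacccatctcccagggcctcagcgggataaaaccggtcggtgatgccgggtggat

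In these windows the motif occurred 2 times before PAX2, 1 time before WT1 and 0 times before PAX8 and HNF4A. Windows before other annotated starts of the same genes gave other numbers, 0 for the second start of PAX2 and of HNF4A and 0, 1 and 1 for 3 further starts of WT1. Of all 35116 windows of this length in the same sequences, 43.2% held it at least once, so its presence is common and is given as a description of the letters only. The windows before PAX2, PAX8 and WT1 consisted of G and C to 61.6%, 61.6% and 70.4%. The WT1 window also lies inside the annotated span of WT1-AS, its antisense gene, which is transcribed the other way.

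The gene of HIF2α, EPAS1 (ENSG00000116016, chr2:46293667-46386697, plus strand), was first examined in every library. Its level in counts per 1000000 counts (CPM), normalised between libraries, was 271, 264 and 232 in control, 247, 247 and 220.4 with PT2385, and 20.2, 25.1 and 21.0 in KO. The KO mean was 8.65% of the control mean, which gave a change of -3.52 on the log2 scale (standard error, SE, 0.0926, edgeR adjusted p = 2.15e-09), whereas with PT2385 it was -0.11 (SE 0.0746, adjusted p = 0.459). Of 8 reference targets of HIF, 6 were counted highly enough to test. All 6 fell with PT2385 and all 6 in KO (adjusted p under 0.05), where 4.62% and 15.4% of all tested genes fell. The study picked some of these targets on these libraries. EGLN3, a prolyl hydroxylase induced by HIF, had mean CPM of 130.4 in control, 14.7 with PT2385 and 2.41 in KO. Of the markers of renal carcinoma cells, PAX8 was abundant and the epithelial keratins KRT8 and KRT18 had means of 405 and 161 CPM in control, whereas CA9 had 0 counts in all 9 libraries. Total counts ran from 11881000 to 14730081 per library, so that 1 count corresponded to 0.0679 to 0.0842 CPM, and a gene with no more than 3 counts was treated as not detected. Of 10 markers of leukocytes, endothelium, erythroid cells and hepatocytes, 9 stayed at or below 3 counts in every library. The exception was CD14, a monocyte marker, with 0 to 9 counts in control, 2 to 10 with PT2385 and 6 to 18 in KO. The summed level of all 10 ran from 0.0823 to 0.916 CPM in control, 0.149 to 0.774 with PT2385 and 0.766 to 1.44 in KO.

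POU5F1 was the member that fell most, SOX9 rose, PAX2 and WT1 fell to a lesser degree, PAX8 and LHX1 were not called and HNF4A had no read. With PT2385, 4 of the 6 members that could be tested were differentially expressed (adjusted p under 0.05), 1 higher and 3 lower, where 7.70% of the 15089 tested genes were called, 3.08% higher and 4.62% lower. With the replicate number as a block, which pairs the libraries in this comparison, the same 4 members and 15.3% of tested genes (2305 against 1162 without it) were called. In KO the same 4 of 6 members were called in the same directions, where 30.1% of 15192 tested genes were called, 14.7% higher and 15.4% lower. Between KO and PT2385 only PAX2 was called, as lower in KO, where 18.8% of 15402 tested genes were called, 8.47% higher and 10.3% lower. Both the PT2385 and the KO changes were taken against the same 3 control libraries, so their shared directions are not independent of each other.

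**Figure D1:**
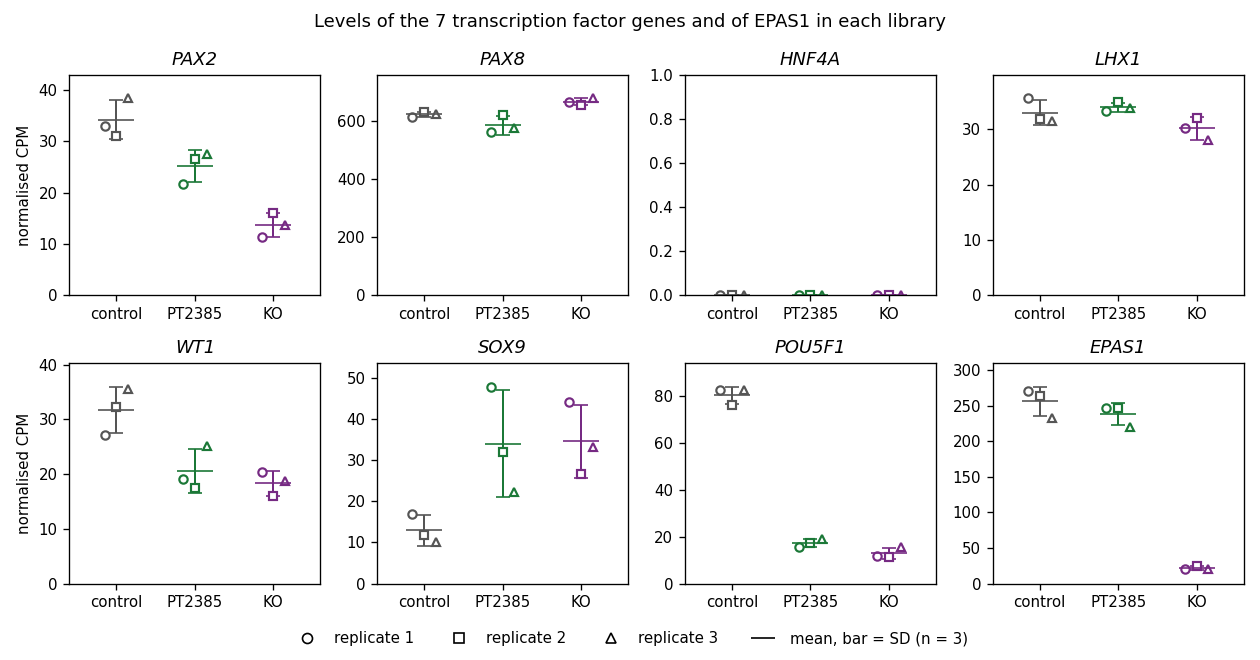
Normalised CPM (y axis, from 0) of the 7 members and of EPAS1 in each library of the control, PT2385 and KO groups. Points are libraries, with the symbol giving the replicate number, horizontal lines are means and bars are SD (n = 3). POU5F1 lies above 76 CPM in every control library and below 20 CPM in all others, SOX9 is lowest in control, PAX2 decreases from control over PT2385 to KO, and HNF4A is at 0 in all 9 libraries.

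PAX8 (ENSG00000125618, chr2:113215997-113278921, minus strand), the paired box factor used to recognise renal carcinoma, was the most abundant member. Its CPM was 614, 629 and 623 in control, 560.3, 621 and 574 with PT2385, and 665, 655 and 677 in KO. The PT2385 libraries overlapped those of control, while the lowest KO library lay above the highest control library. The log2 fold change was -0.09 with PT2385 (95% interval -0.22 to 0.03, adjusted p = 0.390) and 0.11 in KO (95% interval -0.01 to 0.22, adjusted p = 0.142), and neither passed the test. KO exceeded PT2385 by 0.18 (95% interval 0.04 to 0.32, adjusted p = 0.0720) without overlap of the libraries. Against control these intervals reach no farther than 0.22 in either direction, given the spread between these libraries only. In each group at least 98.26% of the 19831 protein-coding genes had a lower level per length than PAX8 in the library where it ranked lowest. PAX8-AS1, which covers 22.4% of the exon bases of PAX8 on the opposite strand, had 87 counts over the 9 libraries.

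PAX2 (ENSG00000075891, chr10:100735396-100829944, plus strand), its close relative, overlaps no other annotated gene and decreased in both conditions. Its CPM was 33.1, 31.0 and 38.4 in control, 21.7, 26.6 and 27.5 with PT2385, and 11.3, 16.0 and 13.8 in KO. The 3 groups did not overlap, with KO lowest and control highest. Against control the mean was 74.0% with PT2385 and 40.1% in KO, and the log2 fold changes were -0.44 (SE 0.110, 95% interval -0.68 to -0.20, adjusted p = 0.0325) and -1.30 (SE 0.132, 95% interval -1.59 to -1.01, adjusted p = 2.84e-05). KO was lower than PT2385 by a log2 fold change of -0.89 (SE 0.142, 95% interval -1.20 to -0.57, adjusted p = 0.00141), so that for PAX2 the knockout and the antagonist differed in size. In same-numbered libraries PT2385 reached 0.656, 0.859 and 0.715 of control. The PT2385 call was lost without control replicate 1 (adjusted p = 0.0765), 2 (0.0583) or 3 (0.143) and without PT2385 replicate 1 (0.0575) or 2 (0.0752), with log2 fold changes from -0.50 to -0.34, and in a model of all 9 libraries (0.0662), while the KO call was kept in each such fit. None of these fits used the replicate block, with which the PT2385 call on every library had an adjusted p of 0.00324.

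LHX1 (ENSG00000273706, chr17:36936785-36944612, plus strand), which acts beside PAX2 in the nephric duct, was not called in any of the 3 comparisons. Its CPM was 35.6, 31.8 and 31.6 in control, 33.4, 34.9 and 33.8 with PT2385, and 30.3, 32.1 and 28.0 in KO. The PT2385 and KO libraries both overlapped control, whereas all 3 KO libraries lay below all 3 PT2385 libraries. The log2 fold change was 0.04 with PT2385 (95% interval -0.14 to 0.22, adjusted p = 0.830), -0.12 in KO (95% interval -0.32 to 0.08, adjusted p = 0.359) and -0.18 for KO against PT2385 (95% interval -0.37 to 0.01, adjusted p = 0.196). None of these passed the test, and the interval of -0.32 to 0.08 for LHX1 in KO rests on the spread between these libraries only.

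WT1 (ENSG00000184937, chr11:32387775-32435564, minus strand), the zinc finger factor of nephron progenitors and podocytes, fell in both conditions to similar levels. Its CPM was 27.2, 32.3 and 35.6 in control, 19.1, 17.5 and 25.1 with PT2385, and 20.4, 15.9 and 18.7 in KO. All PT2385 and KO libraries lay below the lowest control library, and PT2385 and KO overlapped each other. The means were 64.9% and 57.9% of control, with log2 fold changes of -0.63 (SE 0.137, 95% interval -0.92 to -0.33, adjusted p = 0.0152) and -0.78 (SE 0.124, 95% interval -1.05 to -0.51, adjusted p = 0.000731). KO and PT2385 differed by -0.17 (95% interval -0.50 to 0.16, adjusted p = 0.485), which does not show that they are equal. The PT2385 call was lost without control replicate 2 (adjusted p = 0.0789), control replicate 3 (0.0779) or PT2385 replicate 2 (0.0794), at log2 fold changes of -0.61, -0.53 and -0.53. Those fits had no replicate block, with which the call on every library had an adjusted p of 0.000255.

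WT1-AS (ENSG00000183242, chr11:32435518-32500632), the long noncoding RNA that starts beside WT1 on the opposite strand, shares 47 exon bases with it, 0.578% of the exon bases of WT1. Its CPM was 6.38, 5.51 and 4.25 in control, 2.81, 2.38 and 2.96 with PT2385, and 1.70, 1.88 and 1.71 in KO. It was thus lower in every PT2385 and KO library than in any control library. The log2 fold change was -0.99 with PT2385 (SE 0.209, adjusted p = 0.0123) and -1.59 in KO (SE 0.225, adjusted p = 0.000267), and KO against PT2385 gave -0.62 (adjusted p = 0.0790). The PT2385 call was lost without control replicate 1 (adjusted p = 0.0639), control replicate 2 (0.0605) or PT2385 replicate 2 (0.0668). Again these fits had no replicate block, with which the adjusted p on every library was 0.00398. Whether counting used the strand is not given in the sources used here, so that reads of the shared bases cannot be assigned to either gene.

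SOX9 (ENSG00000125398, chr17:72121020-72126416, plus strand), the factor of nephron progenitors and of regenerating tubules, was the member that rose. Its CPM was 17.0, 11.7 and 9.99 in control, 47.8, 31.9 and 22.3 with PT2385, and 44.1, 26.5 and 33.1 in KO. The lowest treated or KO library lay above the highest control library, although the libraries of each group spread widely, with coefficients of variation of 28.5%, 37.8% and 25.7%. The mean reached 264% of control with PT2385 and 268% in KO, with log2 fold changes of 1.39 (SE 0.256, 95% interval 0.83 to 1.95, adjusted p = 0.00503) and 1.43 (SE 0.211, 95% interval 0.97 to 1.89, adjusted p = 0.000419). Same-numbered PT2385 and control libraries differed 2.81, 2.73 and 2.23-fold, and replicate 1 was the highest library in all 3 groups. KO and PT2385 differed by 0.02, but the 95% interval of -0.53 to 0.57 leaves room for a difference in either direction. SOX9-AS1, which overlaps SOX9 in span but in 0 exon bases, had 21 counts over the 9 libraries.

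**Figure D2:**
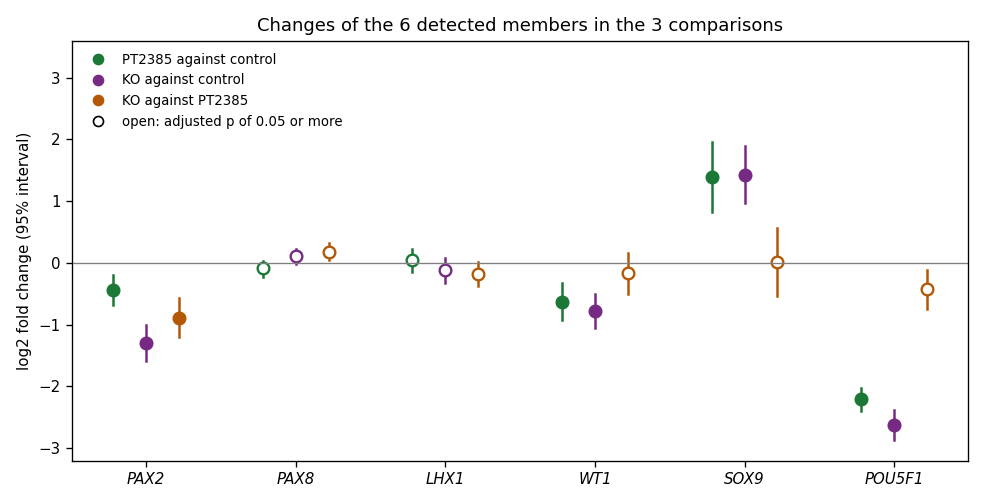
Log2 fold change (y axis) of the 6 members with reads, for PT2385 against control, KO against control and KO against PT2385. Points are edgeR estimates, bars their 95% intervals, and open points have an adjusted p of 0.05 or more. PAX2 is the member with a filled point in all 3 comparisons, SOX9 is the member with filled points above 0, and the intervals of POU5F1 against control end at -2.03 and -2.38, farther from 0 than those of the other members.

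HNF4A (ENSG00000101076, chr20:44355699-44432845, plus strand), which controls the proximal tubule programme, had 0 counts in all 9 libraries, which allows at most 3 counts or 0.204 to 0.253 CPM in a library. The 3 genes annotated inside its span, HNF4A-AS1, ENSG00000233376 and MIR3646, also had 0 counts. The related receptor HNF4G had 17.8 ± 1.80 CPM in control, 16.0 ± 1.60 with PT2385 and 15.7 ± 1.58 in KO (SD, n = 3). Of 22 markers of the proximal tubule, 11 stayed at or below 3 counts in every library, among them LRP2, which encodes megalin, with 0 counts in each.

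POU5F1 (ENSG00000204531, chr6:31164337-31180731, minus strand), the gene of OCT4, showed the largest decrease of the members. Its CPM was 82.5, 76.2 and 82.3 in control, 15.7, 17.3 and 19.1 with PT2385, and 11.6, 11.5 and 15.6 in KO. Control lay far above both other groups, and every KO library lay below every PT2385 library, at 15.6 against 15.7 CPM at the closest. The mean was 21.6% of control with PT2385, a 4.63-fold decrease (log2 fold change -2.21, SE 0.0852, 95% interval -2.40 to -2.03, adjusted p = 8.73e-09). In KO it was 16.1% of control, a 6.15-fold decrease (log2 fold change -2.62, SE 0.112, 95% interval -2.87 to -2.38, adjusted p = 3.32e-08). KO against PT2385 gave -0.43 (SE 0.145, 95% interval -0.75 to -0.11, adjusted p = 0.0652), which did not pass the test. Without KO replicate 3 the difference was -0.59 and passed (adjusted p = 0.00883). POU5F1 belongs to the genes of the study's heatmap, which were picked on these libraries, so its direction with PT2385 is not independent evidence.

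POU5F1 overlaps TCF19 and PSORS1C3 in span, so their rows were read beside its own. PSORS1C3 (ENSG00000204528, chr6:31173735-31177899), a noncoding gene, lies wholly inside the span of POU5F1 on the same strand and shares 0 exon bases with it. Its CPM was 35.4, 28.7 and 35.2 in control, 5.38, 7.44 and 7.53 with PT2385, and 4.17, 5.16 and 4.73 in KO. It thus fell alongside its host gene, to 20.5% and 14.1% of control, with log2 fold changes of -2.28 (SE 0.142, adjusted p = 5.29e-07) and -2.80 (SE 0.138, adjusted p = 7.70e-08). For every 100 counts of POU5F1 there were 42.9, 37.7 and 42.8 of PSORS1C3 in control, 34.4, 42.9 and 39.5 with PT2385, and 35.8, 44.8 and 30.3 in KO, ranges that overlap between all groups. KO against PT2385 gave -0.54 (SE 0.183, adjusted p = 0.0648), and passed at -0.67 without PT2385 replicate 1 (adjusted p = 0.0297). It also passed with the replicate block (0.0313), in a model of all 9 libraries (0.0335) and without the filter on low counts (0.0471). In 10 of 14 alternative settings it did not pass.

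TCF19 (ENSG00000137310, chr6:31158331-31167159, plus strand), a factor linked to proliferation, runs toward POU5F1 from the other side and shares 248 bases of exon with it, 8.64% of the exon bases of POU5F1. Its CPM was 91.1, 85.6 and 92.2 in control, 70.2, 71.9 and 83.7 with PT2385, and 74.5, 68.6 and 96.9 in KO. With PT2385 all libraries lay below control, with a log2 fold change of -0.26 (SE 0.0757, adjusted p = 0.0644), which passed with the replicate block (adjusted p = 0.00839) and, at -0.33, without PT2385 replicate 3 (0.00550). In KO the groups overlapped and the change was -0.15 (SE 0.111, adjusted p = 0.345), but without KO replicate 3 it was -0.31 and passed (adjusted p = 0.00360). There were 90.6, 89.0 and 89.3 counts of POU5F1 for every 100 of TCF19 in control, 22.3, 24.1 and 22.8 with PT2385, and 15.6, 16.8 and 16.1 in KO, so that the 2 genes with overlapping ends did not move alike. When the 3 genes were summed into 1 feature, the log2 fold change was -1.03 with PT2385 and -1.04 in KO, and KO against PT2385 gave -0.03 (adjusted p = 0.904).

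The POU5F1 sequence is copied in several pseudogenes, to which reads may be misassigned, and which were looked up after their values were seen. POU5F1P5 had 39, 41 and 30 counts in control, 36, 45 and 46 with PT2385, and 56, 61 and 58 in KO. Its log2 fold change was 0.05 with PT2385 (adjusted p = 0.926) and 0.46 in KO (adjusted p = 0.0929), neither of which passed. The other 6 copies listed had at most 4 counts in a library. POU5F1 itself had 926 to 989 counts in control, 195 to 271 with PT2385 and 151 to 228 in KO, so that the copy was largest beside it in KO.

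**Figure D3:**
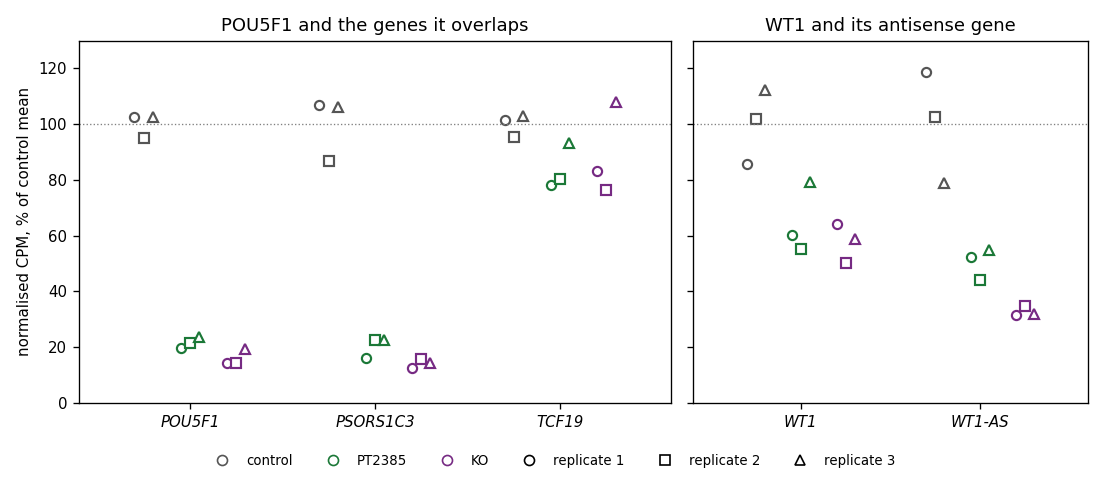
Normalised CPM as a percentage of the control mean (y axis, dotted line at 100) of POU5F1, PSORS1C3 and TCF19 (left) and of WT1 and WT1-AS (right). Each point is 1 library, coloured by group, with the symbol giving the replicate number. POU5F1 and PSORS1C3 lie below 25% of control in every PT2385 and KO library, TCF19 stays above 70%, and WT1-AS lies below WT1 in both groups.

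The order of the members was compared on a scale that corrects for length, transcripts per 1000000 (TPM), computed from the counts and the exon bases of each gene. In control PAX8 led with 353 ± 17.4 TPM, ahead of POU5F1 with 117 ± 10.8, LHX1 with 28.1 ± 2.32, PAX2 with 21.8 ± 3.55, WT1 with 16.3 ± 2.69 and SOX9 with 13.7 ± 3.85 (SD, n = 3). The ranges of PAX2 and WT1 overlapped, although PAX2 lay above WT1 within each of the 3 libraries, and those of WT1 and SOX9 overlapped with WT1 above SOX9 in 2 of the 3. With PT2385 the level of PAX8 was 347 ± 18.2 and SOX9 followed with 38.1 ± 15.4, a range that overlapped LHX1 at 30.3 ± 0.853. POU5F1 then stood at 26.4 ± 1.89, PAX2 at 16.7 ± 1.67 and WT1 at 11.0 ± 1.95. In KO PAX8 had 376 ± 25.4, SOX9 36.7 ± 10.0, LHX1 25.5 ± 0.475 and POU5F1 18.8 ± 4.32, while WT1 at 9.40 ± 1.49 and PAX2 at 8.62 ± 1.32 overlapped. SOX9 thus moved from the sixth place to the second and POU5F1 from the second to the fourth, while PAX2 and WT1 took the last places among the members with reads. These levels rest on the exons of all annotated transcripts, so that genes with long unused exons appear lower.

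**Figure D4:**
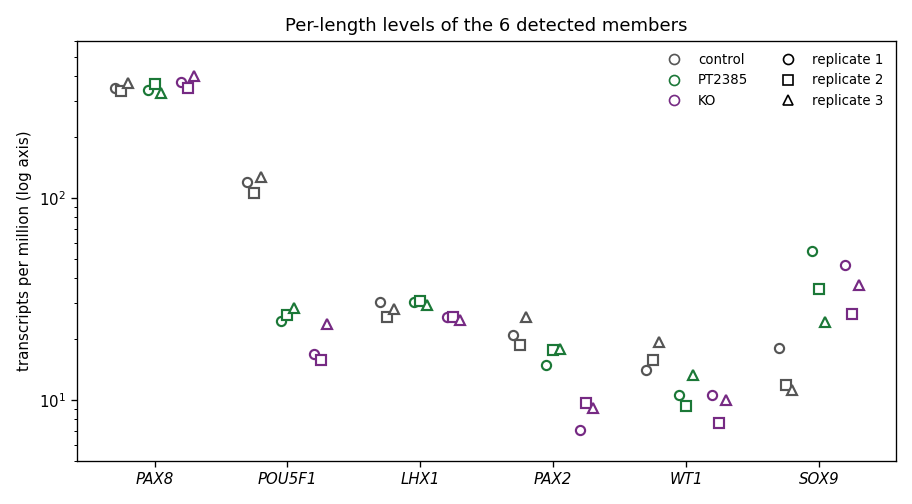
TPM (y axis, log scale) of the 6 members with reads in each library, coloured by group, with the symbol giving the replicate number. PAX8 lies above 300 in all 9 libraries, POU5F1 drops from above 100 in control to below 30 in the PT2385 and KO libraries, and SOX9 passes PAX2 and WT1 in both.

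Each member was also set beside the other 10506 protein-coding genes with a mean of at least 50 counts, by the correlation of log2 CPM over the 9 libraries, which share their groups and are given without a test. NR2F2, an orphan nuclear receptor of the kidney mesenchyme, followed PAX2 most closely (r = 0.990). IRS2, ADM and F3 came closest to POU5F1 (r = 0.998, 0.995 and 0.994). For WT1 these were STX2, ACOT9 and ARHGEF16 (r = 0.968, 0.967 and 0.966), and for SOX9 CYP4F11, DPY19L1 and LHPP (r = 0.948, 0.947 and 0.936). PAX8 and LHX1, which were not called between groups, were nearest to SOCS2 (r = 0.973) and ZFP90 (r = 0.977).

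To place the members among related genes, 46 other transcription factors of kidney development and nephron segments were examined, of which 16 stayed at or below 3 counts in every library. SIX2 and EYA1, which maintain nephron progenitors, and EMX2 of the ureteric bud had 0 counts. With PT2385, 2 of 26 tested rose and 2 fell, where 7.70% of all tested genes were called. The median log2 fold change was 0.00, as over all tested genes (0.00). With the replicate block 3 rose and 3 fell, as SALL1 (0.30, SE 0.0606, adjusted p = 0.00347) and HOXD11 (-0.52, adjusted p = 0.0308) then passed, where 15.3% of all tested genes were called. The rises were FOXD1, a stromal progenitor factor (0.65, SE 0.155, adjusted p = 0.0249), and SOX4 (0.43, SE 0.118, adjusted p = 0.0438), and the falls were HOXD10 (-0.46, SE 0.104, adjusted p = 0.0177) and NR2F2 (-0.37, SE 0.0930, adjusted p = 0.0334). Each of these 4 calls depended on several single libraries. Without control replicate 2 the adjusted p was 0.105 for FOXD1, 0.158 for SOX4 and 0.0548 for NR2F2, and without PT2385 replicate 2 it was 0.0764, 0.149 and 0.0839 for the same genes and 0.0556 for HOXD10. Control replicate 1 was needed for FOXD1 (0.110 without it), HOXD10 (0.0757) and NR2F2 (0.0709), control replicate 3 for SOX4 (0.146), HOXD10 (0.0806) and NR2F2 (0.146), and PT2385 replicate 1 for SOX4 (0.0827) and NR2F2 (0.0590).

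In KO, 2 of 25 tested factors of this list rose and 6 fell, with a median of -0.08, a share of calls close to the 30.1% over all tested genes. TFAP2A, a factor of the AP-2 family that had 17 to 25 counts in control and 120 to 187 in KO, rose by 2.73 (SE 0.223, adjusted p = 3.07e-06). NR2F2 went from 66.8 ± 7.52 to 36.9 ± 5.60 CPM (SD, n = 3), or by -0.84 on the log2 scale (SE 0.113, adjusted p = 0.000216). MEIS2, a homeobox partner of HOX proteins, fell by 0.82 on the log2 scale (adjusted p = 0.000332), IRX3 by 0.58 (adjusted p = 0.00830) and HOXD10 by 0.48 (adjusted p = 0.00570). These 5 calls were kept whichever library was left out. HOXD11, a patterning gene of the metanephros, also fell (-0.60, adjusted p = 0.0186), but not without control replicate 1 (adjusted p = 0.0789) or KO replicate 1 (0.0683).

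Between KO and PT2385, 2 of 26 tested factors of this list were higher in KO and 7 lower. Over all tested genes 18.8% were called, 8.47% higher and 10.3% lower. The median was -0.18 for the list and 0.00 over all tested genes. TFAP2A was higher by 2.24 (SE 0.193, adjusted p = 1.88e-05), and MEIS2 (-0.74, SE 0.124, adjusted p = 0.00178) and SALL1, a zinc finger factor of nephron progenitors (-0.65, SE 0.119, adjusted p = 0.00311), were lower. NR2F2 was lower by a log2 fold change of -0.50 (SE 0.114, adjusted p = 0.0109), in the direction of PAX2, a call lost without PT2385 replicate 2 (adjusted p = 0.0622). FOXC2 was lower as well (-0.89, adjusted p = 0.0141), but not without KO replicate 1 (0.0623) or PT2385 replicate 1 (0.0523).

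**Figure D5:**
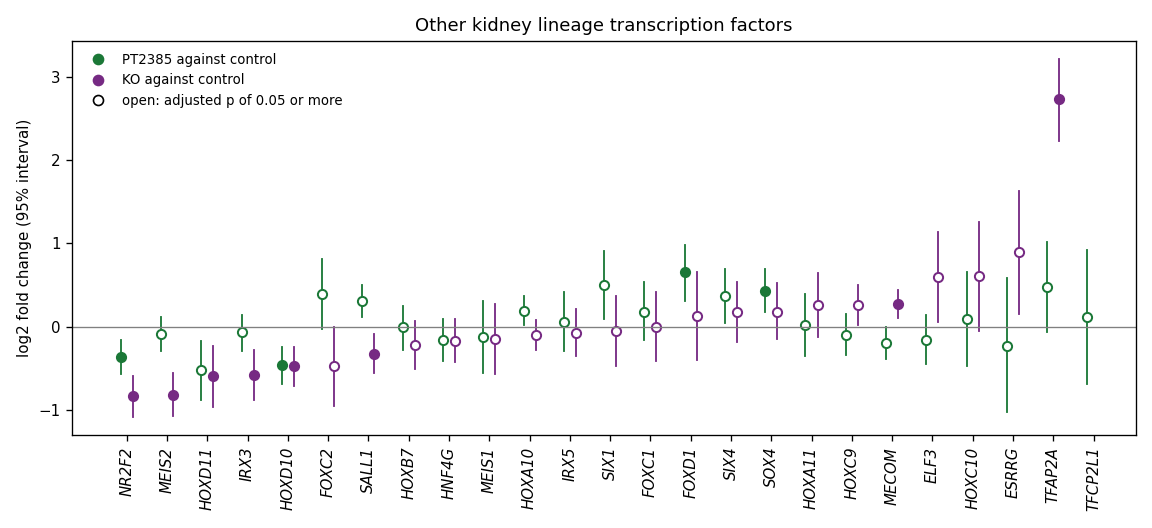
Log2 fold change (y axis) of tested kidney lineage transcription factors beside the 7 members, for PT2385 against control and KO against control, ordered by the change in KO. Points are edgeR estimates, bars their 95% intervals, and open points have an adjusted p of 0.05 or more. Most points lie near 0 with open symbols, TFAP2A in KO lies at 2.73, and NR2F2 and HOXD10 are below 0 with filled points in both comparisons.

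Within the families of the members, few relatives were expressed. Of 9 PAX genes, 6 stayed at or below 3 counts in every library, and PAX6 had 93 to 127 counts in control, 85 to 111 with PT2385 and 110 to 140 in KO without a call. Of 19 SOX genes, 11 stayed at or below 3 counts, 2 of 4 tested rose and 0 fell with PT2385, and 3 of 5 rose and 1 fell in KO. Over all tested genes 3.08% rose with PT2385 and 14.7% in KO. These rises include SOX9 itself in each comparison. SOX5, another of the rises in KO, had 7 counts in every control library and 17 to 36 in KO. It passed the low-count filter only through the KO libraries, so its rise is not counted as support. The rise of SOX4 with PT2385 and that of SOX13 in KO were each lost in 4 of 6 fits with a library left out. SOX12 fell in KO (-0.52, SE 0.0961, adjusted p = 0.00180) and was lower there than with PT2385 (-0.48, SE 0.0983, adjusted p = 0.00592). Of 15 POU genes, 9 stayed at or below 3 counts. POU5F1 was the 1 called of 4 tested with PT2385 and of 5 tested in KO, where 7.70% and 30.1% of all tested genes were called. POU2F1, a broadly expressed relative, had 138 ± 8.74 CPM in control, 134 ± 6.89 with PT2385 and 121 ± 5.94 in KO (SD, n = 3).

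The partners of OCT4 in pluripotent cells were largely silent. Of 21 genes of that network, 14 stayed at or below 3 counts in every library, with NANOG, LIN28A and LIN28B at 0 and SOX2 at no more than 2 counts. Of the 6 that were tested, 0 rose and 1 fell with PT2385, and 1 rose and 1 fell in KO. Over all tested genes 7.70% and 30.1% were called. The medians of the list were 0.06 and -0.03. With the replicate block DNMT3B, a DNA methyltransferase, also rose with PT2385 (0.31, SE 0.0852, adjusted p = 0.0224). The gene that rose in KO was KLF4, a reprogramming factor also found in differentiated epithelia, from 6.51 ± 1.39 to 21.6 ± 4.46 CPM (SD, n = 3, log2 fold change 1.74, SE 0.190, adjusted p = 4.56e-05). It moved opposite to POU5F1 and was higher than with PT2385 as well (1.36, SE 0.159, adjusted p = 0.000196). TERT, the catalytic subunit of telomerase, fell in KO (-0.75, SE 0.173, adjusted p = 0.00703). With PT2385 the gene that fell was KLF5 (-0.80, SE 0.223, adjusted p = 0.0471), a call lost without control replicate 2 (adjusted p = 0.152) or 3 (0.186) and without PT2385 replicate 1 (0.0722) or 2 (0.139).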

How the data were processed

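The authors checked reads with FastQC, trimmed them with cutadapt, aligned them to GRCh38 (hg38) with STAR and counted them per gene with featureCounts, per the study's methods and the submitters' processing notes. The deposited values are raw counts per gene. Tool versions, annotation release and strand setting are not given in the sources used here. Groups, replicate numbers, dose and time came from the labels.

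Each pair of groups was compared with edgeR 4.0.16 in R 4.3.3 on the deposited counts, with TMM normalization (factors 0.9884 to 1.020), filterByExpr (minimum count 10) and its quasi-likelihood F test, with p-values adjusted after Benjamini and Hochberg across the tested genes (threshold 0.05). Standard errors and 95% intervals come from the same model, and the procedure was tested on simulated data. With 3 against 3 libraries, an exact permutation test of 1 gene cannot go below p = 0.1. CPM were computed with TMM-scaled library sizes, and TPM from counts and the merged exon bases of each gene. The 95% intervals cover the spread between these libraries, whereas the floor of 3 counts covers, for single libraries, counting error only. Symbols and positions are from GENCODE for GRCh38.

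Named genes are the 7 members, EPAS1, genes overlapping a member, the 3 genes most correlated with each member, and from each list the called genes with the largest fold change (up to 6 of the lineage list, 3 of others) and a mean of at least 50 counts. Other genes named for their level, such as HNF4G, POU2F1 and PAX6, were chosen after their values were seen. So were genes named for a blocked result (SALL1 and HOXD11 with PT2385, DNMT3B, VIM, KRT19). The same holds for PLA2R1, SOX13, SPP1, KRT8, CLDN16, MIOX, SOX5, CD14 and the pseudogenes. The members and lists were chosen with earlier results of these data known.

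Same-numbered control and PT2385 libraries deviated together from their group means (r = 0.409, 0.103 and 0.391 over 11483 genes, each above 0.1), so the labels' replicate numbers were taken to pair them, and the blocked result is given where it changes a call. Between other groups the numbers were not taken to pair libraries, as replicate 2 stayed below 0.1. Replicates differed beyond counting noise (chi-square per degree of freedom 3.47 to 22.0), so none was a repeat deposit. The alternatives were RLE, upper-quartile and library-size scaling, DESeq2 1.42.0, no filter, at least 10 counts in every library, the replicate block, all 9 libraries in 1 model, leaving out each library, and POU5F1 summed with its neighbours. The study used DESeq2. No column of the table was left out. Values of some listed genes are not reported here, and they are not drawn in the plot of lineage factors, but they are part of the list counts.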

Additional observations from a re-analysis of the deposited data

How the results depend on the processing

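Of the values of members, their neighbours at the POU5F1 locus and EPAS1 under the alternatives, 353 kept their direction and side of the threshold, 14 passed it newly, 9 no longer passed and 5 reversed. All 5 reversals concern KO against PT2385 at changes that did not pass: SOX9 was -0.19 without KO replicate 1, -0.01 without PT2385 replicate 2 and -0.20 without PT2385 replicate 3 (range -0.20 to 0.35 over the libraries left out), TCF19 was -0.08 without KO replicate 3 (range -0.08 to 0.19), and WT1 was 0.00 without PT2385 replicate 3 (range -0.27 to 0.00). With 1 library left out, 574 to 1451 genes were called for PT2385 against control (654, 581 and 728 without control replicates 1, 2 and 3, and 574 without PT2385 replicate 2), 3344 to 5094 for KO against control and 1836 (without PT2385 replicate 2) to 3190 for KO against PT2385, and DESeq2 called 1072, 3972 and 2612. The members called were 2 to 4 with PT2385 and 1 to 2 between KO and PT2385 when a library was left out, and 4 for KO in every fit. Between KO and PT2385, 2 members were called without the filter on low counts, as POU5F1 then passed (adjusted p = 0.0234). In the model of all 9 libraries 3 were called, as POU5F1 (0.0234) and PAX8 (0.0307) passed. Calls over all tested genes rose as well, from 2897 in the main fit to 3606 without the filter and 3431 in that model. The cause was not tested.

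With the replicate number as a block, 2305 genes were called for PT2385 against control, including all 1162 called without it. For KO the numbers were not taken to pair libraries. Same-numbered KO and control libraries nevertheless correlated at 0.279, 0.033 and 0.419, each best with its own number. KO and PT2385 libraries correlated at 0.309, 0.062 and 0.374. Replicate 2 lay below 0.1 in both, and only just above it, at 0.103, for PT2385 against control. Whether KO libraries are paired is thus undecided. There the block gave 5501 calls for KO against control and 3783 for KO against PT2385, 24.6% of tested genes, with 3 members called in the latter, PAX2, PAX8 (adjusted p = 0.0351) and POU5F1 (0.0173).

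Depth limits HNF4A and the silent list genes, of which only absence above 3 counts per library can be stated. One knockout genotype, 3 libraries a group and an unknown strand setting limit the rest.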

Other observations

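In KO, 4 of 7 tested proximal tubule markers rose and 0 fell, where 30.1% of all tested genes were called and 14.7% rose. MIOX, 1 of these 4, had 1 to 3 counts in control and 11 to 24 in KO. It passed the low-count filter only through the KO libraries, so its rise is not counted as support. ANPEP, a brush border peptidase, went from 39.7 ± 2.39 to 66.8 ± 3.38 CPM (SD, n = 3, log2 fold change 0.76, standard error, SE, 0.0740, edgeR adjusted p = 2.03e-05), and DPP4, another peptidase, rose by 0.44 (SE 0.0849, adjusted p = 0.00262). PDZK1, a scaffold of apical transporters, rose by 0.79 (SE 0.247, adjusted p = 0.0325), a call lost without control replicate 2 (adjusted p = 0.0921), control replicate 3 (0.126) or KO replicate 2 (0.0895). With PT2385, 1 of 6 rose and 0 fell, where 7.70% of all tested genes were called, and ANPEP changed by 0.09 (adjusted p = 0.573). With the replicate block 2 of 6 rose, as PDZK1 also passed (0.43, adjusted p = 0.00225), where 15.3% of all tested genes were called. ANPEP was higher in KO than with PT2385 by 0.66 (SE 0.0745, adjusted p = 0.000164). Of 12 markers of the distal nephron and collecting duct, 9 stayed at or below 3 counts in every library, with AQP2 and SCNN1B at 0. With PT2385 1 was tested and 0 were called, and in KO 2 were tested and 2 rose, where 14.7% of all tested genes rose in KO. CLDN16, 1 of these 2, had at most 1 count in control and 24 to 33 in KO. It passed the low-count filter only through the KO libraries, so its rise is not counted as support. SCNN1A, a sodium channel subunit of the collecting duct, had 17 to 51 counts in control and 101 to 297 in KO (log2 fold change 2.28, SE 0.429, adjusted p = 0.00163).

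Of 10 podocyte markers, 6 stayed at or below 3 counts in every library and 3 were tested. Of these 0 rose and 1 fell with PT2385, and 2 rose and 1 fell in KO. Over all tested genes 7.70% and 30.1% were called. PODXL, a sialomucin of the podocyte surface, rose by 0.36 in KO (SE 0.115, adjusted p = 0.0355), a call kept in 1 of 6 fits with a library left out (range 0.30 to 0.45). PLA2R1, the M-type phospholipase A2 receptor, had 8 to 17 counts in control and 33 to 87 in KO and rose by 1.93 (SE 0.447, adjusted p = 0.00506). SYNPO, an actin-binding protein of podocytes, fell from 744 ± 75.7 CPM in control to 193 ± 9.72 with PT2385 and 196 ± 15.4 in KO (SD, n = 3), with log2 fold changes of -1.95 (SE 0.0763, adjusted p = 1.12e-08) and -1.91 (SE 0.0843, adjusted p = 5.36e-08). KO and PT2385 differed by 0.02 (SE 0.0782, adjusted p = 0.906). Of 12 genes of injured tubules, 9 were tested, of which 5 rose and 1 fell with PT2385, and 3 rose and 2 fell in KO, where 7.70% and 30.1% of all tested genes were called. With the replicate block 5 rose and 3 fell with PT2385, as VIM (-0.11, adjusted p = 0.0164) and KRT19 (-0.16, adjusted p = 0.0464) then passed, where 15.3% of all tested genes were called. Of the rises with PT2385, those of CLU, SPP1 and KRT8 were each lost in 5 of 6 fits with a library left out and that of KRT18 in 2, and both falls in KO, of CLU and CD24, were lost in 4 of 6. VCAM1, an adhesion molecule of injured tubule cells, rose from 18.0 ± 0.660 CPM to 77.0 ± 13.4 with PT2385 and 123 ± 29.9 in KO (SD, n = 3, log2 fold changes 2.09 and 2.78, adjusted p = 3.01e-07 and 2.50e-07), and it is among the genes named by the study from these libraries. KRT18, an epithelial keratin, rose by 0.85 in KO (SE 0.0918, adjusted p = 4.66e-05). CLU, which encodes the secreted chaperone clusterin, was lower in KO than with PT2385 by a log2 fold change of -1.35 (SE 0.192, adjusted p = 0.000655).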
